A study of Drosophila melanogaster with 8 samples.

Results

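The genes described here are the trypsin-like and Jonah serine proteases of Drosophila melanogaster, measured in whole larvae of 4 genotypes. They were taken as every row of the deposited tables with a single gene symbol that begins with Jon and a number, ends in Try, or is Ser followed by a number only. This gave 30 genes of 15904 rows, made up of 16 Jonah genes, 10 trypsin genes and 4 Ser genes. No row that merges several genes held a further member.

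RNA came from whole wandering larvae late in the third instar, and each library held the RNA of 5 larvae. WT was the Oregon R+ strain. The other genotypes were hsromega66, Hsp90GFP and a genotype labelled as carrying hsp90GFP and hsromega66 together. These 3 are labelled with the same background, w1118; Sp/CyO', where Sp and CyO are a marker and a balancer of chromosome 2. Each comparison with WT therefore also compares backgrounds, and genotype and background cannot be told apart in it. Whether the backgrounds of the other 3 genotypes match beyond their labels was not tested. hsromega66 is an allele of the long non-coding RNA gene Hsromega, and Hsp90GFP is a GFP-tagged form of the chaperone Hsp90, the product of Hsp83. The sources used here do not give the promoter of the Hsp90GFP transgene.

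Each genotype had 2 libraries, but the value deposited for a gene was 1 FPKM per genotype (a fragment count corrected for gene length and sequencing depth), pooled by the authors over both libraries. No spread between replicates can therefore stand beside a level, and the read depth is unknown. Genes were called changed at a q-value under 0.05 in the authors' deposited table, given a test status of OK. The 95% interval beside a ratio comes from the standard error implied by the ratio and the deposited test statistic. Calls from these implied errors can differ from calls by the deposited q-value. Nothing in the labels says that both libraries of a genotype came from separate cultures. The p-values therefore rest on libraries whose spread is not shown and may be technical.

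Hsromega was listed by the authors at 236 FPKM in WT, 0.767 in hsromega66 larvae and 273 in Hsp90GFP. The libraries labelled as the recombinant stood at 77.9 FPKM, which was 33.0% of WT and 102-fold above hsromega66, against what the label states. These are therefore called the libraries labelled as the recombinant, or the labelled recombinant, throughout. Hsp83 stood at 371 FPKM in WT, 427 in hsromega66 larvae, 1616 in Hsp90GFP and 968 in the labelled recombinant, and it was called in no table.

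Trypsins and the chymotrypsin-like Jonah proteases are secreted by cells of the larval midgut, where they cut dietary protein in the gut lumen. Trypsins cut after lysine or arginine. Both groups belong to the same large family of serine proteases as the clip-domain proteases of blood and embryo, and their genes lie in tandem clusters. Feeding ends when larvae wander, and the larval midgut is later replaced at metamorphosis. In whole larvae, fewer gut cells and less RNA per gut cell cannot be told apart.

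The summed level of the proteases relative to WT was 1.07 in Hsp90GFP, 1.95 in hsromega66 and 2.27 in the labelled recombinant. The sum of their FPKM was 12914 in WT, 25246 in hsromega66 larvae, 13818 in Hsp90GFP and 29258 in the labelled recombinant. These sums were 1.38%, 2.42%, 1.55% and 2.43% of all FPKM, in the same order. Jonah genes made up most of each sum, with 11759 FPKM in WT and 25836 in the labelled recombinant, against 1149 and 3324 for the trypsin genes. By genotype, 18 of the 30 genes were highest in the labelled recombinant, 7 in hsromega66, 4 in Hsp90GFP and 1 in WT. The lowest level was in WT for 15 genes and in Hsp90GFP for 10. The 15 include Ser12, which was listed at 0 in hsromega66 and Hsp90GFP too. Ser12 is also among the 18, at only 0.0303 FPKM in the labelled recombinant.

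**Figure D1:**
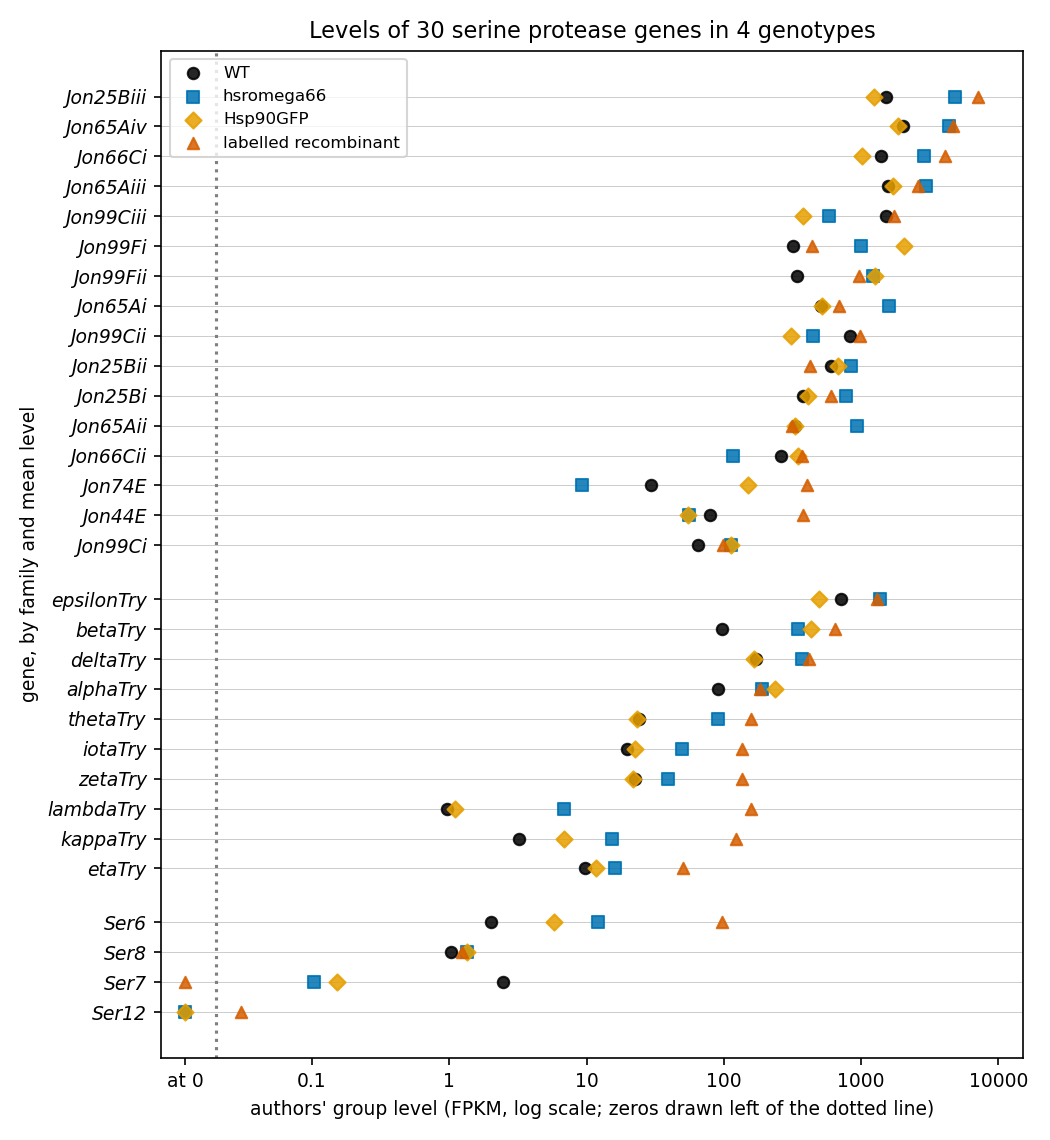
Levels of all 30 genes, with the authors' FPKM on a log axis and 1 point per genotype and gene, ordered by mean level within the Jonah, trypsin and Ser genes. Zeros are drawn left of the dotted line, and no error is drawn because 1 value per genotype was deposited. The points of lambdaTry span 162-fold and those of Ser8 span 1.31-fold.

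The 6 genes with the highest mean level were 5 Jonah genes and epsilonTry. Jon25Biii, on chromosome 2L, had the highest mean, with authors' FPKM of 1516 in WT, 4839 in hsromega66 larvae, 1239 in Hsp90GFP and 7087 in the labelled recombinant. It was the 22nd most abundant row of all in the labelled recombinant and the 100th in WT. Jon65Aiv stood at 2018, 4394, 1858 and 4688 FPKM in the same order of genotypes. Jon66Ci stood at 1385, 2881, 1009 and 4062 FPKM. All 3 were thus high in hsromega66 and the labelled recombinant and low in WT and Hsp90GFP. Jon65Aiii showed the same split over a narrower range, at 1571, 2947, 1703 and 2607 FPKM. epsilonTry, the most abundant trypsin RNA in all 4 genotypes, stood at 708 FPKM in WT, 1364 in hsromega66 larvae, 495 in Hsp90GFP and 1312 in the labelled recombinant. Jon99Ciii was divided in another way, high in WT at 1513 FPKM and in the labelled recombinant at 1729, and low in hsromega66 at 579 and in Hsp90GFP at 380.4. Among these 6, only Jon25Biii and Jon99Ciii were called in any table.

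Of the 30 genes, 28 were tested in all 6 tables, Ser7 in some and Ser12 in none. Over the 6 tables there were 40 calls of a member, and 28 of them (70.0%) were in tables that hold the labelled recombinant. Over all genes that share was higher, at 2847 of 3264 calls (87.2%). In all, 15 of the 29 members tested were called in at least 1 table (51.7%), against 1414 of 12992 genes (10.9%). The smallest ratio called for a member was 3.49-fold.

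The comparison of hsromega66 with WT asks what loss of most Hsromega RNA goes with. Higher levels in hsromega66 were called for 6 of the 29 members tested, and lower levels for none, although 3 were lower at an unadjusted Cuffdiff p under 0.05. Over all genes tested, 0.862% were called higher, 0.375% lower and 1.24% in either direction. The 6 were 4 trypsin genes, Jon99Fii and Ser6. The median log2 fold over the members, on the log2(FPKM + 1) scale, was 1.06, against -0.03 over all genes tested, and 23 of the 29 had a higher level in hsromega66.

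lambdaTry had the largest called ratio of these, at 0.965 FPKM in WT and 6.84 in hsromega66. That is 7.09-fold higher (95% interval 1.28 to 39.4, q = 0.0424 in the authors' deposited table). kappaTry, its neighbour, rose from 3.20 to 15.3 FPKM, or 4.79-fold (1.26 to 18.2). thetaTry rose 3.78-fold, from 24.1 to 91.1 FPKM (interval 1.30 to 11.0, q = 0.0137 in the authors' deposited table), which was the smallest q among the 6. betaTry rose from 97.6 to 344 FPKM, or 3.52-fold (1.17 to 10.6). Ser6, a serine protease gene on the X chromosome, rose 6.0-fold from 2.01 to 12.0 FPKM (1.5 to 24.0). Jon99Fii rose 3.56-fold from 343 to 1218 FPKM (1.15 to 11.0). Thus 4 trypsin genes and Ser6 rose from under 100 FPKM, and Jon99Fii rose from a higher level.

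All 10 trypsin genes had a higher level in hsromega66 than in WT, of which 4 were called, against 11 of the 16 Jonah genes, of which 1 was called. Trypsin genes had a median log2 fold of 1.20 and Jonah genes one of 0.97. Jon25Biii, at 3.19-fold, was not called and had an interval of 0.826 to 12.3. Jon74E lay the other way, at 29.7 FPKM in WT and 9.33 in hsromega66, and its ratio of 0.314 (0.0948 to 1.04) was not called. These 6 calls depended on the adjustment: none remained at a deposited q under 0.01 or with Benjamini-Hochberg adjustment within the table, and only thetaTry with adjustment over all 6 tables.

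Hsp90GFP larvae differed from WT in a few Jonah genes and 1 trypsin gene. Of 29 members tested, 3 were called higher, where 0.618% of all genes were, and 1 lower, where 0.467% were (1.09% in either direction). The median log2 fold was 0.11 over the members and -0.04 over all genes tested, with 17 of the 29 above WT and 12 below.

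Jon99Fi and Jon99Fii are neighbours on chromosome 3R, 1034 bp apart and divergent in strand. Jon99Fi stood at 321 FPKM in WT, 1002 in hsromega66 larvae, 2041 in Hsp90GFP and 438 in the labelled recombinant. It rose 6.35-fold in Hsp90GFP against WT (interval 1.59 to 25.4, q = 0.00740 in the authors' deposited table), and Hsp90GFP was the genotype with its highest level. Jon99Fii stood at 343, 1218, 1252 and 967 FPKM in the same order. Its ratio of Hsp90GFP to WT, 3.66-fold (0.971 to 13.8), was not called.

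Jon74E, a Jonah gene with no other member near it, stood at 29.7 FPKM in WT, 9.33 in hsromega66 larvae, 149 in Hsp90GFP and 402 in the labelled recombinant. These 4 levels span 43.1-fold, the widest range of any Jonah gene. The row of Jon74E spans 2389 bp, against 1051 bp for the annotated gene. Its value may therefore hold reads from outside the gene. Jon74E rose 5.02-fold in Hsp90GFP against WT (1.69 to 14.9, q = 0.00372 in the authors' deposited table). betaTry, at 97.6 FPKM in WT and 429.8 in Hsp90GFP, rose 4.40-fold (1.52 to 12.8). Jon99Ciii fell in Hsp90GFP against WT, where it was 3.98-fold lower (1.16 to 13.6, q = 0.0211 in the authors' deposited table). Of these 4 calls, Jon74E alone remained with adjustment within the table, and none when a z test with implied errors was used.

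The libraries labelled as the recombinant had more trypsin RNA than WT. Of 29 members tested, 10 were called higher, where 4.61% of all genes were, and 1 lower, where 4.05% were (8.66% in either direction). The 10 were 7 trypsin genes, Jon44E, Jon74E and Ser6. The median log2 fold was 2.60 over the 10 trypsin genes, 0.63 over the 16 Jonah genes and -0.07 over all genes tested. Over the alternatives run, 8 to 12 members were called. In the same libraries 7 of 10 salivary gland markers, the Sgs genes and Eig71Ee, stood between 0.0166 and 21.2 FPKM, against 80.6 to 33244 in WT, with 3 of them called lower. The other three, ng1, ng2 and ng3, stood higher than in WT and were not called. Muscle markers summed over 10 genes stood at 2.03 times WT, with none called. The part of these tissues in the protease result was not tested.

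The largest ratios were those of genes with little RNA in WT. lambdaTry stood at 0.965 FPKM in WT, 1.11 in Hsp90GFP, 6.84 in hsromega66 and 156 in the labelled recombinant, so its level in the labelled recombinant was well apart from the other three. It rose 162-fold against WT (35.6 to 738, q = 0.00264 in the authors' deposited table). Ser6 stood at 2.01 FPKM in WT, 5.82 in Hsp90GFP, 12.0 in hsromega66 and 96.6 in the labelled recombinant. It rose 48.2-fold against WT (12.9 to 180, q = 0.00144 in the authors' deposited table). kappaTry followed the same order of genotypes, at 3.20, 6.89, 15.3 and 122 FPKM. Its rise against WT was 38.1-fold (10.6 to 136). In all 3 genes the order from low to high was WT, Hsp90GFP, hsromega66 and the labelled recombinant, although the step from WT to Hsp90GFP was not called for any of them.

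The other trypsin genes called in this comparison rose by similar ratios from low or moderate levels. thetaTry stood at 24.1 FPKM in WT, 23.4 in Hsp90GFP, 91.1 in hsromega66 and 158 in the labelled recombinant, and its rise against WT was 6.56-fold (2.27 to 19.0). zetaTry stood at 22.6, 21.8, 39.1 and 136 FPKM in that order and rose 6.04-fold (2.05 to 17.8). iotaTry stood at 19.8, 22.5, 49.5 and 136 FPKM and rose 6.84-fold (2.23 to 21.0). In these 3 genes WT and Hsp90GFP were close to each other and hsromega66 lay between them and the labelled recombinant. etaTry stood at 9.72, 11.7, 16.1 and 50.5 FPKM and rose 5.20-fold (1.64 to 16.5). betaTry was the exception in having a high level in Hsp90GFP too, at 97.6, 429.8, 344 and 651 FPKM, and rose 6.66-fold in the labelled recombinant (2.21 to 20.1).

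Of the 16 Jonah genes, 2 were called higher. Jon74E rose 13.5-fold against WT (4.58 to 39.9, q = 0.00144 in the authors' deposited table). Jon44E stood at 78.9 FPKM in WT, 55.8 in hsromega66 larvae, 54.6 in Hsp90GFP and 377 in the labelled recombinant, and rose 4.79-fold (1.39 to 16.5). Jon25Biii, at 4.68-fold (1.14 to 19.1, q = 0.0557 in the authors' deposited table), was just outside the threshold. Ser7, the one member called lower, stood at 2.47 FPKM in WT, 0.104 in hsromega66 larvae and 0.153 in Hsp90GFP, and was listed at 0 in the labelled recombinant. WT was the genotype with its highest level, and no ratio is given against a level listed at 0.

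**Figure D2:**
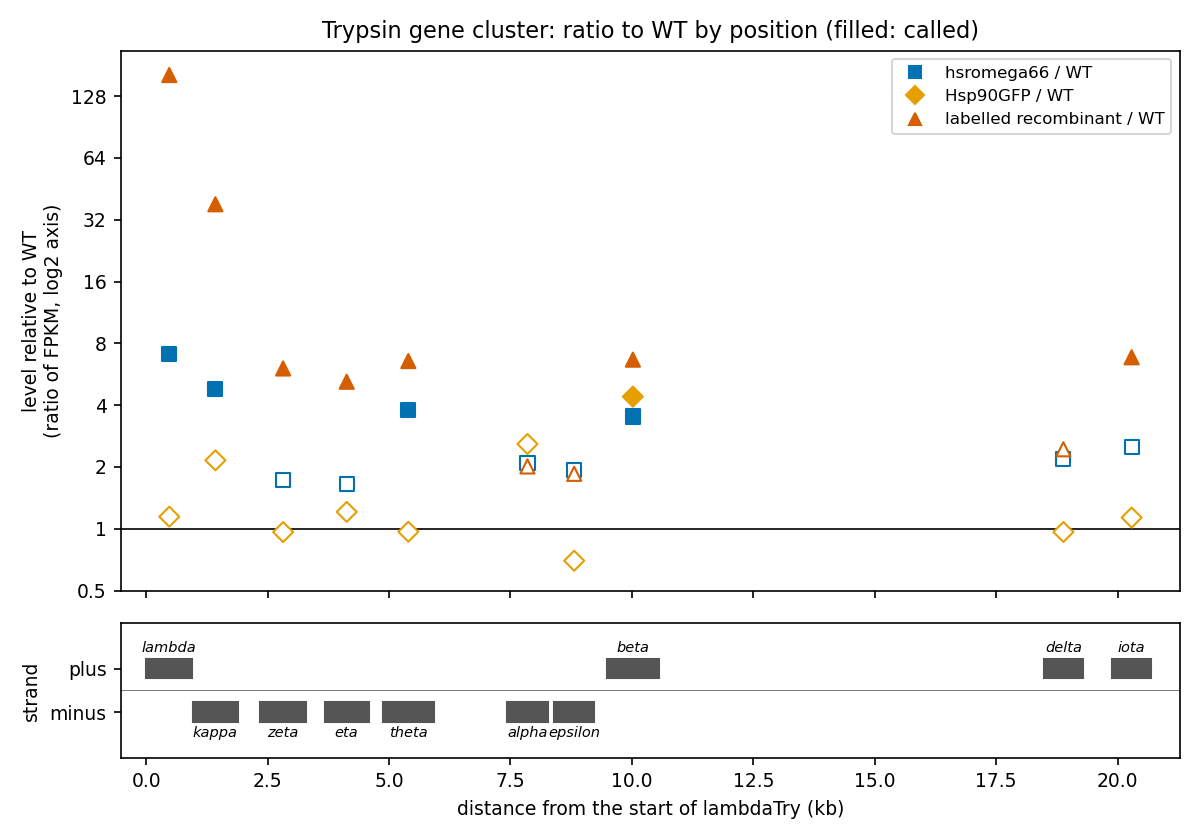
Ratio of each genotype to WT along the trypsin gene cluster, with the authors' FPKM ratio on a log2 axis against distance from the start of lambdaTry in kb. Filled points were called, open points were not, and the lower panel shows the genes on each strand. The labelled recombinant lies at 162 for lambdaTry, 38.1 for kappaTry and 1.85 for epsilonTry.

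All 10 trypsin genes lie within 20.7 kb of chromosome 2R, at 2R:11336840-11357537 in dm6. In the order along the chromosome they are lambdaTry, kappaTry, zetaTry, etaTry, thetaTry, alphaTry, epsilonTry, betaTry, deltaTry and iotaTry. In the comparison of the labelled recombinant with WT the first 5 were all called higher. alphaTry and epsilonTry, next in order, were not called, with ratios of 2.01 (0.698 to 5.80) and 1.85 (0.586 to 5.86). betaTry was called, deltaTry was not, at 2.44 (0.796 to 7.48), and iotaTry at the far end was. The 3 genes not called were among the 4 with the highest WT levels, at 91.2 FPKM for alphaTry, 172 for deltaTry and 708 for epsilonTry, and betaTry at 97.6 was the other.

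lambdaTry and kappaTry, the genes with the largest ratios, lie 5 bp apart on opposite strands, with their 3' ends facing. Within 30 kb of either end of the cluster there were 13 further rows, of which 10 were tested in the labelled recombinant against WT, and none of the 13 was called in any of the 6 tables. Near-identical trypsin copies lie between betaTry and deltaTry. The rows at the annotated positions of gammaTry and CG30031 were listed at 0 in all 4 genotypes, and CG30025 stood between 0.193 and 0.439 FPKM. How reads shared by such copies were assigned is not stated, so the level of deltaTry is uncertain.

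Against hsromega66 alone, the labelled recombinant again had more RNA of lambdaTry, kappaTry and zetaTry, at the lambdaTry end of the cluster. Of 28 members tested, 6 were called higher in the labelled recombinant, where 3.68% of all genes were. None was called lower, where 3.63% were (7.30% in either direction). At an unadjusted Cuffdiff p under 0.05, 3 members and 1020 of 12488 genes were lower. Over the alternatives run, 4 to 6 members were called. The median log2 fold was 0.52 over the members and -0.03 over all genes tested. lambdaTry was 22.9-fold higher than in hsromega66 (6.12 to 85.4), kappaTry 7.95-fold (2.47 to 25.5), Ser6 8.03-fold (2.48 to 26.0) and zetaTry 3.49-fold (1.21 to 10.1). Jon74E had the largest ratio, 43.1-fold (12.5 to 148, q = 0.00144 in the authors' deposited table), between its lowest and highest levels of the 4 genotypes. Jon44E was 6.77-fold higher (1.93 to 23.7). Of the 10 trypsin genes, 8 had a higher level and 2 a lower one. etaTry and thetaTry, also at the lambdaTry end, were 3.15-fold and 1.74-fold higher and not called. iotaTry at the far end was 2.74-fold higher, and not called either. Over the Jonah genes the median log2 fold was -0.04, with 8 of 16 above hsromega66 and 8 below. The muscle markers Mhc and up were also called higher in the labelled recombinant than in hsromega66, at 1531 against 174 FPKM and 1217 against 254. Of the 10 muscle markers, 7 were higher there at an unadjusted Cuffdiff p under 0.05, where 1021 of 12488 genes were. The part of the muscle markers in the protease result was not tested.

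Against Hsp90GFP alone, 10 of 28 members were higher in the labelled recombinant, where 3.51% of all genes were, and 1 was lower, where 3.14% were (6.66% in either direction). The median log2 fold of the labelled recombinant over Hsp90GFP was 1.37 for the members, 2.28 for the trypsin genes and -0.05 for all genes tested. lambdaTry was 142-fold higher (33.4 to 599), kappaTry 17.7-fold (5.43 to 57.5) and Ser6 16.6-fold (4.64 to 59.3). thetaTry, zetaTry, iotaTry and etaTry were higher by 6.78-fold, 6.26-fold, 6.03-fold and 4.30-fold. Among the Jonah genes, Jon44E was 6.91-fold higher (1.84 to 25.9), Jon25Biii 5.72-fold (1.29 to 25.3) and Jon99Ciii 4.55-fold (1.23 to 16.8). Jon99Fi was 4.66-fold lower in the labelled recombinant (1.19 to 18.3, q = 0.0266 in the authors' deposited table). At a deposited q under 0.01, 6 of these 11 calls remained, and Jon99Fi was not among them.

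The 2 single genotypes differed from each other in 2 members. Of 28 tested, Jon74E was called higher in Hsp90GFP than in hsromega66, where 0.343% of all genes were, and thetaTry lower, where 0.654% were (0.997% in either direction). Jon74E was 15.99-fold higher in Hsp90GFP (4.63 to 55.2, q = 0.00144 in the authors' deposited table). thetaTry was 3.90-fold lower (1.29 to 11.8, q = 0.0144 in the authors' deposited table). Over the members the median log2 fold was -0.80, against -0.01 over all genes tested, and 21 of the 28 had a lower level in Hsp90GFP. The call of thetaTry held only with adjustment over the 6 tables, among the alternatives that change the call rule, and that of Jon74E held under all of them.

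The comparisons of hsromega66 with WT and of the labelled recombinant with Hsp90GFP share no group, and each sets a genotype labelled hsromega66 against one without it. Of the 28 members tested in both, 16 had a higher level in the genotype labelled hsromega66 both times, and none had a lower level both times. The remaining 12 lay in opposite directions, so 57.1% had the same direction, against 57.9% of 11893 genes. Trypsin genes lay above in both comparisons for 9 of 10, alphaTry being the exception, and Jonah genes for 6 of 16. Over all genes, 25.5% lay above both times.

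**Figure D3:**
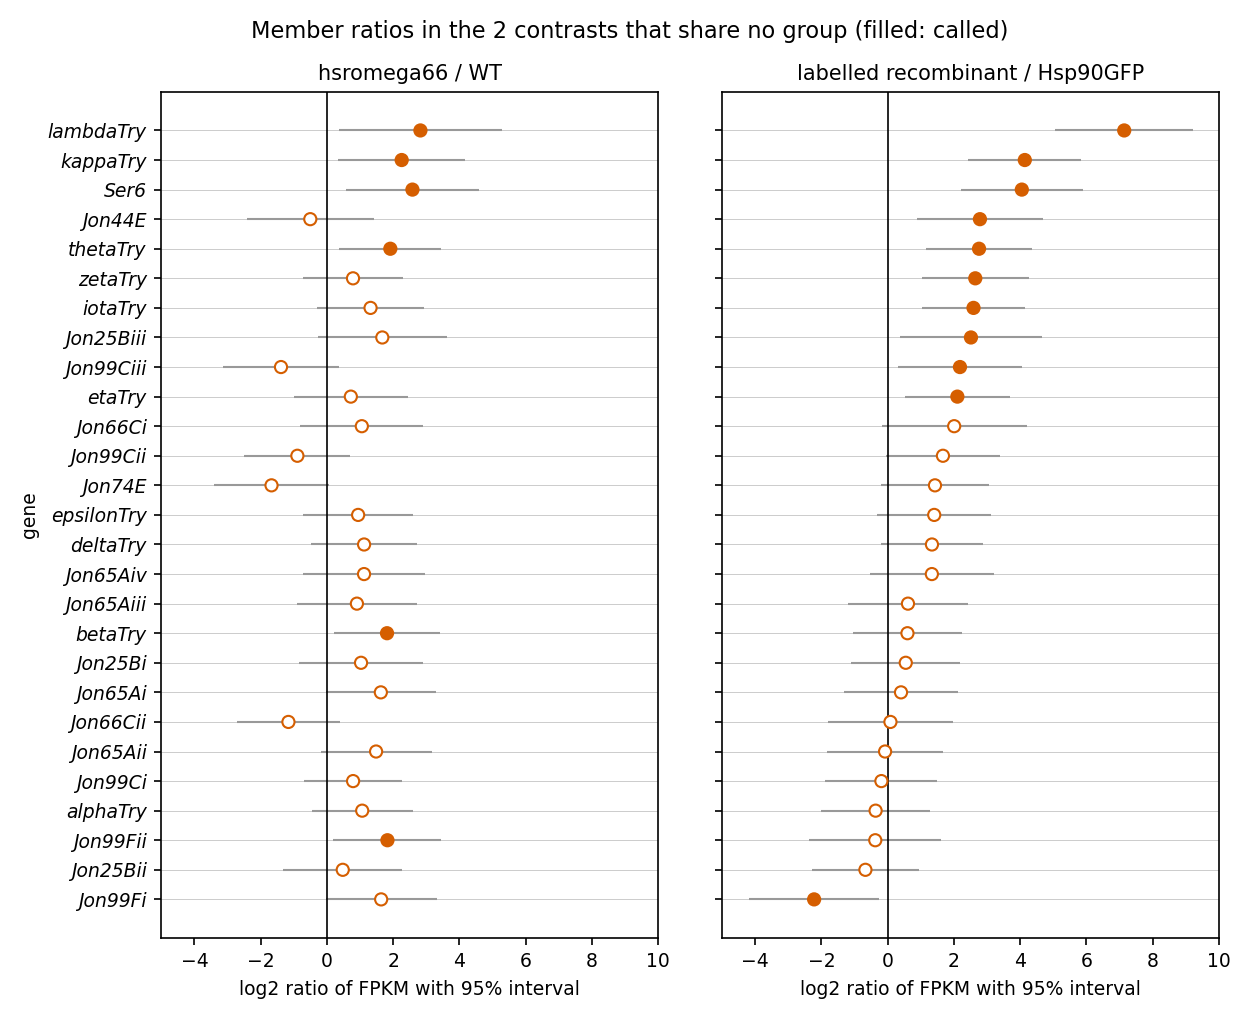
Log2 ratios of FPKM with 95% intervals from the implied standard errors, for hsromega66 against WT (left) and the labelled recombinant against Hsp90GFP (right), 1 row per gene. Filled points were called. Ser8, with a very wide interval, and Ser7 and Ser12, not tested in both, are not drawn. lambdaTry lies at 2.83 on the left and 7.14 on the right, and Jon99Fi at 1.64 and -2.22.

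The difference between these log2 ratios was put to a z test. One of the ratios also compares backgrounds. The other rests on the labelled recombinant, with backgrounds matched by label only. A difference therefore cannot be put down to Hsp90GFP alone. None of 28 members passed it at an adjusted p under 0.05 (Benjamini-Hochberg over 11893 genes), where 0.471% of all genes did. Without adjustment, 6 members (21.4%) had p under 0.05, against 603 of 11893 genes (5.07%). The smallest adjusted p among them was 0.298, for Jon99Fi, which was 3.12-fold higher in hsromega66 than WT, not called, and 4.66-fold lower in the labelled recombinant than Hsp90GFP. Jon99Ciii, Jon74E, Jon44E and Jon99Cii had ratios under 1 in hsromega66 against WT and over 1 in the labelled recombinant against Hsp90GFP, and lambdaTry had ratios over 1 in both. A difference between the comparisons was thus not detectable for any member in these tables.

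Jonah genes lie in small groups, and neighbours within a group did not always have the same pattern over genotypes. These ratios of levels between neighbours are descriptions with no test. Jon66Ci and Jon66Cii lie 442 bp apart on chromosome 3L on opposite strands. Jon66Cii stood at 262 FPKM in WT, 117 in hsromega66 larvae, 349 in Hsp90GFP and 369.8 in the labelled recombinant, so it was lowest in hsromega66, where Jon66Ci was high. The level of Jon66Ci was 5.28 times that of Jon66Cii in WT, 24.6 times in hsromega66, 2.89 times in Hsp90GFP and 11.0 times in the labelled recombinant. Jon25Biii and Jon25Bii lie 1475 bp apart on 2L on the same strand. Jon25Bii stood at 605, 844, 677 and 425 FPKM in that order of genotypes, lowest where Jon25Biii was highest. Their ratio of levels was 2.50 in WT, 5.73 in hsromega66 larvae, 1.83 in Hsp90GFP and 16.7 in the labelled recombinant.

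Jon99Ciii and Jon99Cii, 298 bp apart on 3R, were both lowest in Hsp90GFP and highest in the labelled recombinant. Jon99Cii stood at 828 FPKM in WT, 447 in hsromega66 larvae, 309 in Hsp90GFP and 983 in the labelled recombinant. Jon99Ci, the third of that group, stood at 65.2, 113, 113 and 99.3 FPKM, lowest in WT. In the Jon65A group on 3L, Jon65Ai and Jon65Aii were both highest in hsromega66, at 1587 and 932 FPKM, and stood between 314 and 689.8 FPKM in the other 3 genotypes. Jon65Aiv, of the same group, was highest in the labelled recombinant, where Jon65Aii was lowest. Of the genes in these groups other than Jon99Ciii, none was called in any table.

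The Ser genes had little RNA apart from Ser6 in the labelled recombinant. Ser8 stood between 1.04 and 1.35 FPKM in all 4 genotypes and Ser12 was listed at 0 in all but the labelled recombinant, at 0.0303 FPKM. Ser8 lies in a row of the tables that spans 12 other annotated genes, so its value may hold reads of those. Jon44E shares its row span with CG8586 on the other strand, which stood at 31.0 FPKM in WT and 15.9 in the labelled recombinant. deltaTry shares its row span with CG13202 on the other strand, at 3.50 FPKM in WT and 4.59 in the labelled recombinant. The library kit keeps strand, but the strand setting of the counting is not stated. Without it, reads of either pair cannot be told apart. For 26 of the 30 genes the row's span equals the annotated gene. The other 4 are Ser8, Jon44E, Jon74E and deltaTry.

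The remaining genes were called in no table. Jon25Bi stood at 379 FPKM in WT, 775 in hsromega66 larvae, 409.8 in Hsp90GFP and 599 in the labelled recombinant. alphaTry stood at 91.2, 191, 236 and 183 FPKM, and deltaTry at 172, 374, 166 and 419 FPKM. Over the 30 genes, 16 lie on chromosome 2, which carries the Sp and CyO chromosomes of the mutant genotypes, and 9 of 15 tested there (60.0%) were called in some table, against 6 of 14 elsewhere (42.9%). Over all genes these shares were 11.0% on chromosome 2 and 10.8% elsewhere.

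Amylases, maltases, lipases and 1 of 7 lysozyme genes of the gut were also called in these comparisons. Of 23 other digestive enzymes tested in hsromega66 against WT, 6 were called higher and none lower, with a median log2 fold of 1.99. In the labelled recombinant against WT, 11 of 23 were called higher and 2 lower, with a median of 2.59. In Hsp90GFP against WT, 1 of 24 was higher and 1 lower. Over all genes, 0.862% were called higher and 0.375% lower in hsromega66 against WT, with a median log2 fold of -0.03. In the labelled recombinant against WT these were 4.61%, 4.05% and -0.07. In Hsp90GFP against WT the shares were 0.618% and 0.467%. The summed FPKM of these digestive enzymes was 1397 in WT, 10731 in hsromega66 larvae, 3956 in Hsp90GFP and 17650 in the labelled recombinant. Lysozymes made up most of these sums, with 835, 9185, 3275 and 15084 FPKM in that order, and 6 of the 7 lysozyme genes, among them LysB, LysD and LysS, were called in no table. Without the lysozymes the other 17 genes summed to 562, 1546, 681 and 2567 FPKM, and 13 of them were called in at least 1 table.

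Mal-A1, a maltase, rose from 5.07 FPKM in WT to 40.5 in hsromega66 and 315 in the labelled recombinant, and stood at 5.53 in Hsp90GFP. The glucosidase-like gene tobi stood at 3.82 FPKM in WT, 17.2 in hsromega66 larvae, 9.53 in Hsp90GFP and 127 in the labelled recombinant. Against WT it was called in the labelled recombinant and in neither single genotype. The lipase gene Lip3 was called higher in hsromega66, at 43.1 FPKM against 1.75 in WT, and stood at 7.36 in the labelled recombinant. The lysozyme gene LysX went up in hsromega66, to 224 FPKM from 38.1 in WT, and down in Hsp90GFP and the labelled recombinant, to 4.27 and 2.1. Mal-A1 and tobi thus had the same order of genotypes as kappaTry, while LysX and Lip3 did not.

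Peritrophic matrix genes encode the chitin-binding lining of the midgut. Of 5 tested, 2 were called higher in the labelled recombinant against WT, where 4.61% of all genes were. None was called in hsromega66 or Hsp90GFP against WT, where 1.24% and 1.09% of all genes were. At an unadjusted Cuffdiff p under 0.05, 2 were higher in hsromega66 and 1 was lower in Hsp90GFP. At that p, 309 of 12523 genes were higher in hsromega66 and 154 of 12621 lower in Hsp90GFP. Muc68E was called lower in the labelled recombinant and in Hsp90GFP, each against hsromega66. Peritrophin-15a rose 4.77-fold in the labelled recombinant, from 1167 to 5561 FPKM, and Peritrophin-15b rose 4.06-fold, from 335 to 1357 FPKM. Of 15 midgut transcription factors and regulators, 1 was called higher in the labelled recombinant against WT, where 4.61% of all genes were. This was GATAe, the endodermal GATA factor, at 4.22 FPKM in WT and 13.9 in the labelled recombinant. None of the 15 was called in hsromega66 or Hsp90GFP against WT, where 1.24% and 1.09% of all genes were. The summed level of these 15 genes was 201 FPKM in WT, 193 in hsromega66 larvae, 238 in Hsp90GFP and 224 in the labelled recombinant. None of 7 enteroendocrine peptide genes was called in any table, with at most 1 at an unadjusted Cuffdiff p under 0.05. Over all genes, 0.997% to 8.66% were called in a table, and 386 of 12621 to 2278 of 12656 reached that p.

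**Figure D4:**
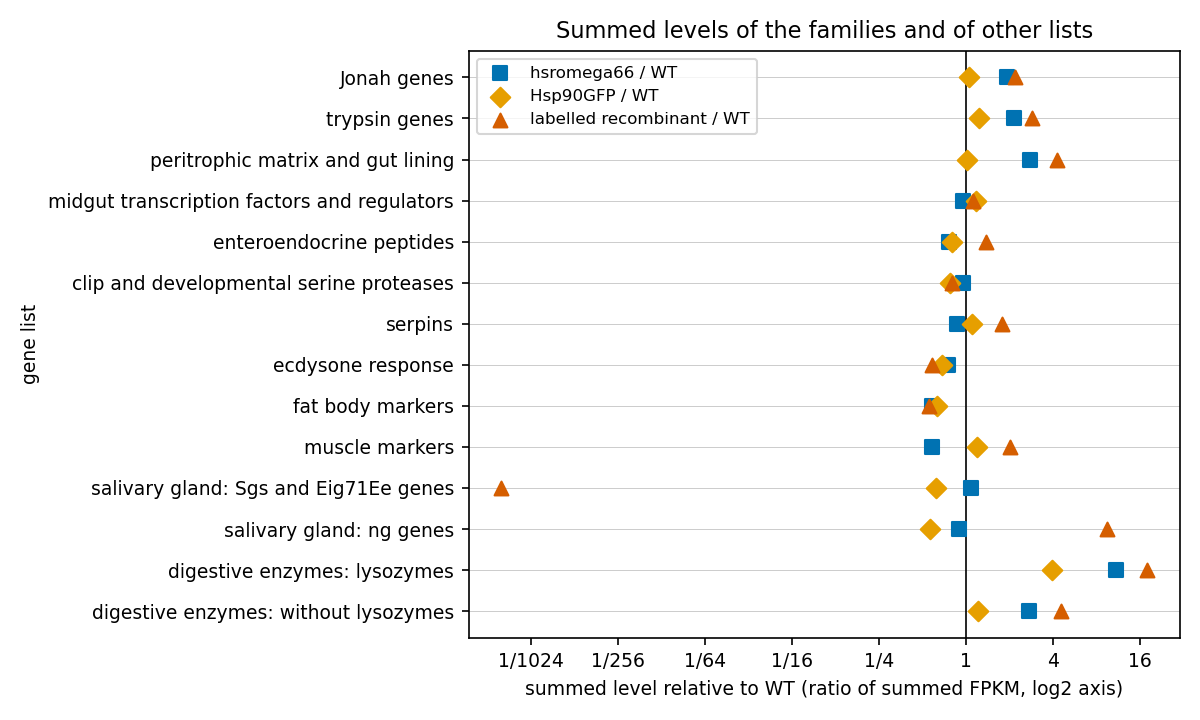
Summed FPKM of the Jonah genes, the trypsin genes and each other list, as a ratio to WT on a log2 axis, with 1 point per genotype. The digestive enzymes are split into lysozymes and the rest, and the salivary gland markers into ng genes and the rest. No error is drawn because 1 value per genotype was deposited. The labelled recombinant lies at 18.1 for lysozymes, 4.57 for the other digestive enzymes, 9.46 for the ng genes and 0.000607 for the Sgs and Eig71Ee genes.

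The clip and developmental proteases, most of which act in blood or in the embryo, had 11 or 12 genes tested in each table. None was called, with at most 3 in a table at an unadjusted Cuffdiff p under 0.05. Over all genes, 0.997% to 8.66% were called in a table, and 386 of 12621 to 2278 of 12656 reached that p. A list this short would hold few calls at such shares. Their summed level was 211 FPKM in WT, 202 in hsromega66 larvae, 163 in Hsp90GFP and 170 in the labelled recombinant. Serpins, which inhibit serine proteases, had 11 genes tested. Spn47C was called higher in hsromega66 and in the labelled recombinant against WT, at 3.0 FPKM in WT, 17.3 in hsromega66 larvae and 24.4 in the labelled recombinant. Spn55B rose 6.37-fold in the labelled recombinant, from 33.9 to 216 FPKM. Spn100A was called lower in Hsp90GFP, at 4.36 FPKM against 19.4 in WT.

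Markers of other tissues also differed in the labelled recombinant. The summed level of 10 salivary gland markers was 47877 FPKM in WT, 51846 in hsromega66 larvae, 29765 in Hsp90GFP and 3136 in the labelled recombinant, with 3 of 10 called lower there against WT, 1 in hsromega66 and none in Hsp90GFP, and none at 0 in any genotype. In the labelled recombinant, ng1, ng2 and ng3 made up 3107 of the 3136 FPKM, and the 7 others summed to 28.8, against 47549 in WT. The fat body sum over 6 markers was 45348, 26433, 28666 and 25268 FPKM in that order, with 2 of 5 tested called lower in the labelled recombinant against WT and 1 in each single genotype. Those 2 were Fbp1, at 2.49 FPKM against 5996 in WT, and Lsp2, at 178 against 10998. The 1 called in both single genotypes was Lsp1gamma, at 12858 FPKM in WT, 2.1 in hsromega66 larvae, 1.62 in Hsp90GFP and 8541 in the labelled recombinant. Lsp1gamma thus differed among genotypes labelled with the same background, and the reason was not tested. Muscle markers summed to 7216, 4225, 8570 and 14668 FPKM over 10 genes. None was called, and 0 were at an unadjusted Cuffdiff p under 0.05, against WT in any genotype. From 386 of 12621 genes in Hsp90GFP to 2278 of 12656 in the labelled recombinant reached that p. Of 13 ecdysone response genes tested, 4 were called lower and none higher in the labelled recombinant against WT. There 8 were lower and 1 higher at an unadjusted Cuffdiff p under 0.05, with a median log2 fold of -1.65. At that p, 1121 of 12656 genes were lower and 1157 higher. ImpE2 stood at 152 FPKM in WT and 0.493 in the labelled recombinant, and Eip78C at 23.7 and 0.350. None was called in hsromega66 or Hsp90GFP against WT, where 1 each was lower at an unadjusted Cuffdiff p under 0.05. Over all genes, 4.05% were called lower against WT in the labelled recombinant, 0.375% in hsromega66 and 0.467% in Hsp90GFP. The part of the fat body and ecdysone genes in the protease result was not tested either. Whether larvae of all 4 genotypes were at the same point of the wandering stage was also not tested.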

How the data were processed

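RNA of whole larvae was depleted of ribosomal RNA with a stranded kit and sequenced as 50 bp paired reads, per the labels' protocols. Per the submitters' processing notes, the tools were Bowtie, TopHat, Cufflinks and Cuffdiff 2.1.1 on the build dm6, with no other version stated. Every pair of the 4 genotypes has a deposited table. Per the file headers, levels are FPKM, 1 per genotype, with a test statistic (a score), a p-value and a q-value for each gene; the smallest p-value is 5e-05. The deposited log2 fold column was not used, because ratios were recomputed from FPKM; medians over genes use log2(FPKM + 1).

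The standard error of a log2 ratio was the ratio divided by the deposited statistic, and intervals are 95% normal intervals. Alternatives were another q threshold, other sets of adjusted tests, a z test on implied errors, median centring, a filter at 1 FPKM, merged rows and another pseudocount. The z test was run on data simulated with normal errors of known size. That simulation does not show how well the implied errors suit the deposited statistics.

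The members and the 10 gene lists (140 genes, 120 with a row of their own, 16 in merged rows, 4 not matched) were chosen with earlier results of these data known. Levels and statistics were given for each member called in any table and for the 6 with the highest mean FPKM, the other members by level or range, and up to 4 called genes per list; the list genes ng1, ng2, ng3, LysB, LysD and LysS, and the splits of their lists, were chosen after their values were seen. Gene positions came from the Ensembl release 115 annotation. Scripts ran in Python 3.11.15 with pandas 2.3.3, scipy 1.17.1, numpy 2.4.6 and matplotlib 3.10.9.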

Additional observations from a re-analysis of the deposited data

How the results depend on the processing

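Among the calls of hsromega66 against WT, 0 members remained at a deposited q under 0.01, 0 with adjustment within the table, 0 with a z test from implied errors, 0 with that z test on median-centred ratios, 0 with the filter at 1 FPKM together with adjustment within the table and 1 with adjustment over the 6 tables, against 6 as reported. For Hsp90GFP against WT, the count of 4 became 1 with adjustment within the table, 0 with implied errors, 0 with centring and implied errors, and 1 with the filter and that adjustment. For Hsp90GFP against hsromega66, the count of 2 became 1 at q under 0.01, 1 with adjustment within the table, 1 with implied errors, 1 with centring and implied errors, and 1 with the filter and that adjustment. For Hsp90GFP against the labelled recombinant, the count of 11 became 6 at q under 0.01, 6 with implied errors and 6 with centring and implied errors. The cause was not tested. Of the 40 calls of a member over the 6 tables, 20 were lost with implied errors, 15 at q under 0.01, 11 with adjustment within the table, 10 with the filter and adjustment within the table, and 8 with adjustment over the 6 tables, and no direction reversed. One uncalled ratio, Jon25Biii in the labelled recombinant against WT, passed with the filter and adjustment within the table but not with that adjustment alone. Counting merged rows changed no count, and another pseudocount, the filter or centring turned no median log2 fold in direction. No paired analysis was possible because the deposited tables hold 1 value per genotype and none per library, and leaving out each library was not run for the same reason. The unknown depth limits what low levels such as those of Ser7, Ser8 and Ser12 can show.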
